A study of Homo sapiens with 6 samples.

Results

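The transcripts that differed between 24 h and 48 h after siRNA transfection were examined in MDA-MB-231, a human breast cancer cell line that is triple-negative: it lacks the oestrogen and progesterone receptors and has no amplified HER2. All cells carried a transfected siRNA: a control (siControl), one against the nuclear receptor coactivator NCOA3 (siNCOA3) or one against the adaptor protein SHC1 (siSHC1). One library of polyadenylated RNA was sequenced for each siRNA and time, so that all 6 libraries of the series enter, 3 at 24 h and 3 at 48 h. The libraries form 3 pairs, each with the same siRNA at both times, and a gene was tested if it reached at least 1 FPKM (fragments counted on a gene, divided by its length and by the depth of the library) in at least 2 libraries. Of 20111 listed genes 11699 passed, and of these 2239 were higher at 48 h in all 3 pairs, 2223 were lower in all 3, and 7237 did neither. KLF15 lay just inside the filter, with 1.00021 FPKM in the higher but one of its libraries, and FGD4 just outside it, with 0.999799. The labels give no untransfected cells, no cell density and no change of medium, so that time since transfection, time in culture and crowding of the cells cannot be told apart. The labels also do not say whether libraries came from separate cultures, so that the p-values cover no more than the spread among the 6, part of which may be technical. As each pair had another siRNA, that spread also holds any change with time particular to an siRNA. A single line stands for the disease.

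The cell cycle is read at the RNA level mainly through E2F target genes, which are transcribed as cells pass from G1 into S phase, and through a later wave of mitotic genes. Sterol synthesis genes are transcribed by SREBP factors when membrane cholesterol is low, and FOXO factors transcribe genes that restrain growth when growth factor signalling is weak. This is background and not a result of these libraries.

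Total FPKM per library lay between 495518 and 553073, and the mitochondrial genome gave 17.3% to 18.7% of that total. Genes with a value above 0 numbered 14796 to 14997 at 24 h and 15004 to 15221 at 48 h, so that every 48 h library listed more. What this adds to the results below was not tested. The steps between low values put the depth of the 48 h library at 1.45 times that of the 24 h library for siControl, 1.10 for siNCOA3 and 0.986 for siSHC1. The changes of the siNCOA3 pair had a smaller spread over genes than those of the other pairs (values below), and results that turn on it are given with and without it. The siRNA targets were not called for time: NCOA3 stood at a log2 change of 0.03 ± 0.09 (SE, n = 3 pairs, limma adjusted p = 0.894) and SHC1 at 0.05 ± 0.06 (limma adjusted p = 0.723). All 11 markers expected in this line passed the filter, with vimentin (VIM) between 887 and 1020 FPKM, while PGR was listed at 0 in every library, ESR1 stayed under 0.1 FPKM and ERBB2 stood between 26.9 and 35.5 FPKM. Of 14 leukocyte markers 3 passed the filter, and CD4, MS4A1 and TYROBP were listed at 0 in all 6 libraries. The summed level of the leukocyte markers was 53.6 to 68.7 FPKM at 24 h and 55.8 to 70.8 at 48 h, most of it CD68, which tumour lines also express. Of 9 fibroblast markers 3 passed, DCN was listed at 0, and the sum was 5.75 to 11.3 FPKM at 24 h and 8.79 to 13.7 at 48 h, a difference whose part in the results below was not tested.

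ZSCAN18, a zinc finger protein with a SCAN domain that is known as a gene silenced by promoter methylation in several carcinomas, was the one gene with a mean of at least 5 FPKM that passed the test between the times. Its level at 24 h was 19.8 FPKM after siControl, 21.4 after siNCOA3 and 19.0 after siSHC1. At 48 h it was 62.9, 48.8 and 39.8 FPKM in the same order. Every 48 h library lay above every 24 h library, and the siRNAs lay closer together at 24 h than at 48 h. After scaling the rise was 2.93-fold in the siControl pair, 2.30-fold in the siNCOA3 pair and 2.11-fold in the siSHC1 pair. By limma ZSCAN18 rose by 1.24 ± 0.10 in log2(scaled FPKM + 1), the scale of every log2 change given here (SE, n = 3 pairs, limma adjusted p = 0.0217). The call was lost without the siControl pair (1.10, limma adjusted p = 0.0843), or without either of its libraries (adjusted p = 0.0909 without 24 h and 0.0839 without 48 h). It was also lost with no filter on low values (adjusted p = 0.484), with 1 FPKM asked in all 6 libraries (0.0555), without the siRNA term (0.287) and without trend and robust moderation (0.109). ZNF135, annotated on the opposite strand across the same locus of chromosome 19, was listed at 0 in all 6 libraries.

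The SCAN-domain zinc fingers were then read as a family. Of 36 tested members ZSCAN18 was the one called and also the one with an unadjusted p under 0.05, 26 lay above 0, 5 were higher in all 3 pairs and 1 was lower in all 3, with a median of 0.042. The 5 of 36 higher in all pairs are no larger a share than the 19.1% of all tested genes. The members next in size stood at 0.29 ± 0.14 (ZSCAN25, limma adjusted p = 0.394), 0.23 ± 0.13 (ZSCAN32) and 0.19 ± 0.11 (ZKSCAN4). ZSCAN25 and ZSCAN32 each moved the other way in 1 pair. The 250 bases before an annotated start of ZSCAN18 are shown because methylation of CpG pairs is the form of silencing known for it (RefSeq, GRCh38.p14, chr19:58118405-58118654, minus strand, 5′ to 3′, CpG pairs in capitals, 1 of 2 starts in the table).
ZSCAN18: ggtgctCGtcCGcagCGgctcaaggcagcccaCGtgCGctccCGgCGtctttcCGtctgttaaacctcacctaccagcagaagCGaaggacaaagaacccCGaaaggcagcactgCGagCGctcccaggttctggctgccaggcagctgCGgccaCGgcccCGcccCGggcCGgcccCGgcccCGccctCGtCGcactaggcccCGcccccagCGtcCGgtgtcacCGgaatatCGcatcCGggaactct
The stretch holds 27 CpG pairs, against a median of 11 over all promoters of that length, and 82.3% of promoters hold fewer. No methylation was measured in these libraries.

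**Figure D1:**
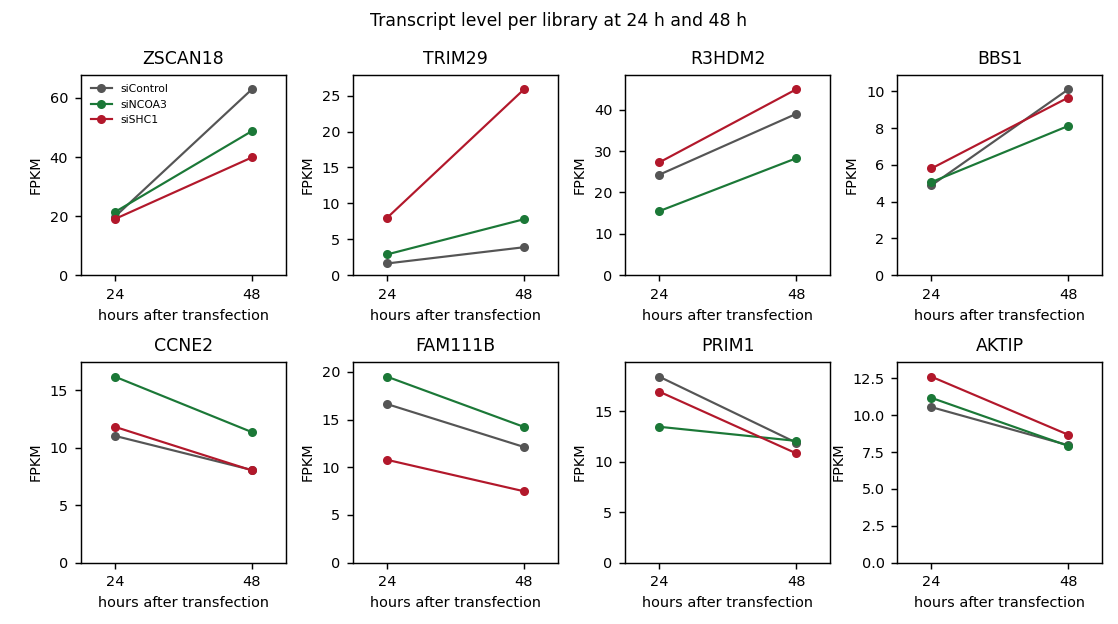
FPKM of 8 genes (y axis, linear from 0) at 24 h and 48 h after transfection (x axis), with 1 point per library and a line joining the 2 libraries of each siRNA. ZSCAN18 lies between 19.0 and 21.4 FPKM at 24 h and between 39.8 and 62.9 at 48 h. The other 7 genes were not called, and for TRIM29, CCNE2 and FAM111B the values of 24 h and 48 h overlap.

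By limma 3 genes passed the test over all 11699, or 0.0256%, 2 higher and 1 lower. Without adjustment 1651 genes had a p under 0.05, or 14.1%, 911 of them higher and 740 lower. Besides ZSCAN18 the test called AL050302.1 and RP11-680G10.1, clone-named genes with a mean under 5 FPKM, named after their values were seen. AL050302.1 was listed at 0 in all 3 libraries of 24 h and stood at 7.92, 13.1 and 5.67 FPKM at 48 h after siControl, siNCOA3 and siSHC1 (limma adjusted p = 0.0123). RP11-680G10.1 stood at 1.62, 4.06 and 2.10 FPKM at 24 h, and at 48 h at 0.824 FPKM after siNCOA3 and listed at 0 in the other libraries (limma adjusted p = 0.0217). Both genes passed the filter only through the time at which they are high, so that they had to differ, and they are given as a description. Neither was tested when 1 FPKM was asked in all 6 libraries, where limma called no gene (1581 at an unadjusted p under 0.05). Both rest partly on values listed at 0, which in such a table can be failed estimates. The call of RP11-680G10.1 was also lost with a pseudocount of 0.1 (limma adjusted p = 0.220), without the siRNA term (0.927) and without the siSHC1 pair (0.0593). Neither symbol was matched in the annotation used here, so that overlap with another gene could not be looked up. The count of 3 became 0 without the siControl pair or either of its libraries, 59 without the siNCOA3 pair, 60 and 59 without its 24 h and its 48 h library, and 6 without the siSHC1 pair or either of its libraries.

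Few genes moved far in all pairs. A change of at least 2-fold in scaled FPKM + 1 in every pair was seen in 2 genes higher (ZSCAN18 and AL050302.1) and 2 lower (AP002348.1 and RP11-680G10.1), each 0.0171% of those tested, of which ZSCAN18 alone reached 1 FPKM in all 6 libraries. AP002348.1 reached it in 1 library of 48 h, and AL050302.1 and RP11-680G10.1 in libraries of 1 time. A change of at least 1.2-fold in every pair was seen in 106 genes higher (0.906%) and 53 lower (0.453%). Genes higher in all 3 pairs made up 19.1% of those tested and genes lower in all 3 made up 19.0%. That balance depended on the scaling, with 3030 higher and 1505 lower under upper quartile scaling, 2480 and 1710 without scaling and 2106 and 2401 with equal totals. Counts of list members below belong to the median-of-ratios scaling, as do these shares. The 2 patterns in which siControl and siSHC1 moved together against siNCOA3 were the next most frequent, with 1633 genes lower, higher and lower (14.0%) and 1558 higher, lower and higher (13.3%), in the order siControl, siNCOA3, siSHC1.

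Further genes were taken for description without a call, if they averaged 5 FPKM or more and ranked highest by the smallest of their 3 pair changes. TRIM29, a protein of basal epithelia, stood at 1.64, 2.90 and 8 FPKM at 24 h and at 3.90, 7.80 and 25.9 FPKM at 48 h after siControl, siNCOA3 and siSHC1. The siSHC1 libraries are high at both times and the groups overlap, while within each pair the scaled FPKM was more than 2-fold higher at 48 h (log2 change 1.19 ± 0.15, limma adjusted p = 0.154). R3HDM2, an RNA-binding domain protein, went from 24.3, 15.5 and 27.3 FPKM to 39.0, 28.3 and 44.9 (0.70 ± 0.08, limma adjusted p = 0.131). BBS1, a subunit of the BBSome that carries cargo to cilia, went from 4.89, 5.06 and 5.81 FPKM to 10.1, 8.12 and 9.66 (0.69 ± 0.09, limma adjusted p = 0.185). For R3HDM2 and BBS1 every 48 h library lay above every 24 h library, as in 5.75% of all tested genes, while every 48 h library lay below in 4.03%. TCTN1, a protein of the ciliary transition zone, was at 0.59, with 4.08 to 6.24 FPKM at 24 h and 7.46 to 10.4 at 48 h.

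TSC22D3, the glucocorticoid-induced leucine zipper, stood at 0.65 ± 0.10 and did not overlap between the times, with 9.87 to 13.8 FPKM at 24 h and 14.9 to 21.2 at 48 h. The exocyst subunit EXOC6 stood at 0.91 ± 0.17, the kinase TNK1 at 0.83 ± 0.17, gamma-synuclein (SNCG) at 0.73 ± 0.11 and carboxypeptidase E (CPE) at 0.73 ± 0.12. ICAM1, the adhesion receptor for leukocyte integrins, stood at 0.52 ± 0.09, with 33.9 to 37.7 FPKM at 24 h and 45.7 to 62.4 at 48 h. The remaining genes of this group were PIGN (0.45), a GPI anchor enzyme, the neuronal tubulin TUBB3 (0.43), the autophagy protein MAP1LC3A (0.42) and the p53 target TP53I3 (0.42). Of the 14 uncalled genes of this group TRIM29, SNCG and TUBB3 overlapped between the times, where the choice by the smallest pair change favours groups that do not. Among all tested genes 5.75% had every 48 h library above every 24 h library. All but TRIM29, R3HDM2 and BBS1 had a limma adjusted p of 0.286. SNCG and CPE passed the test without the siNCOA3 pair, the pair in which each changed least.

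The uncalled genes that were lower in every pair were led by AP002348.1, a clone-named gene, with 32.2, 38.5 and 64.8 FPKM at 24 h and 0.0173, 0.00177 and 4.05 FPKM at 48 h (limma adjusted p = 0.131). It passed the test without the siSHC1 pair, the pair in which it changed least, and without trend and robust moderation. LUZP6 went from 192.8, 152.3 and 62.3 FPKM to 20.4, 59.3 and 44.8 (-1.69 ± 0.65, limma adjusted p = 0.386). LUZP6 lies within the MTPN locus on the same strand, and MTPN stood at 0.06 ± 0.07, so that the split of fragments between them is uncertain. Some of the others serve DNA replication. CCNE2, the cyclin E2 that drives entry into S phase, went from 11, 16.2 and 11.8 FPKM to 8.06, 11.4 and 8.02 (-0.49 ± 0.08). FAM111B, a protease of replicating cells, went from 16.6, 19.5 and 10.8 FPKM to 12.1, 14.2 and 7.48 (-0.47 ± 0.08). For CCNE2 and FAM111B the siRNA levels differ enough for the groups to overlap.

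AKTIP, which binds the kinase AKT, stood at -0.46 ± 0.08 with 10.5 to 12.6 FPKM at 24 h and 7.92 to 8.67 at 48 h. The mitochondrial carrier SLC25A16 stood at -0.78 ± 0.15, CCDC138 at -0.59, glomulin (GLMN), a cullin ligase inhibitor, at -0.56, and C18orf32 at -0.52. C18orf32 shares its locus and strand with the read-through gene RPL17-C18orf32, which stood at 0.54 ± 0.34, so that its fragments too may be split. The ketone body enzyme OXCT1 stood at -0.47, the RNA polymerase I subunit CD3EAP at -0.44, the centrosomal protein CEP128 at -0.41, ACYP2 at -0.39 and the clock factor ARNTL2 at -0.36. Apart from AP002348.1 and LUZP6, each uncalled gene of this group had a limma adjusted p of 0.286. On the opposite strand CCNE2 overlaps INTS8, which stood at -0.07 ± 0.08, AKTIP overlaps RBL2 at 0.01 ± 0.12 and BBS1 overlaps ZDHHC24 at 0.17 ± 0.10. As the use of strand in quantification is not known, fragments of such partners cannot be told apart.

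The 3 pairs were also compared with each other. Since no library belongs to more than 1 pair, their changes can be set side by side. The SD of the change over genes was 0.28 in the siControl pair, 0.20 in the siNCOA3 pair and 0.29 in the siSHC1 pair, and 88, 40 and 92 genes differed at least 2-fold (0.444% higher and 0.308% lower for siControl, 0.180% and 0.162% for siNCOA3, 0.547% and 0.239% for siSHC1). Across the 11699 genes, which are not independent replicates, Pearson's r was 0.39 between the siControl and siSHC1 pairs, 0.17 between siControl and siNCOA3 and 0.16 between siNCOA3 and siSHC1 (Spearman's rho 0.41, 0.14 and 0.16). With 1 library per siRNA and time the difference between pairs could not be tested.

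Genes chosen in 2 pairs were then read in the third, which the choice had not used. Of 55 genes at least 1.5-fold higher in the siControl and siSHC1 pairs, with 5 FPKM or more on average, 38 were also higher in the siNCOA3 pair, with a median there of 0.12 and 3 at 1.5-fold or more. Of 12 genes lower in the same 2 pairs 5 were lower in the siNCOA3 pair, with a median of 0.015. The 8 genes higher in the siControl and siNCOA3 pairs were all higher in the siSHC1 pair, with a median of 0.42, and the 3 lower ones were all lower, with a median of -0.46. Of 8 genes higher in the siNCOA3 and siSHC1 pairs 6 were higher in the siControl pair, with a median of 0.38. The 3 genes lower in the siNCOA3 and siSHC1 pairs were all lower in the siControl pair, with a median of -0.40. Over all tested genes the median change was -0.0066 in the siControl pair, 8.4e-05 in the siNCOA3 pair and 0.0035 in the siSHC1 pair. Scaling by median of ratios holds such medians near 0, so that the near balance of genes above and below 0 in each pair describes the scaling.

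**Figure D2:**
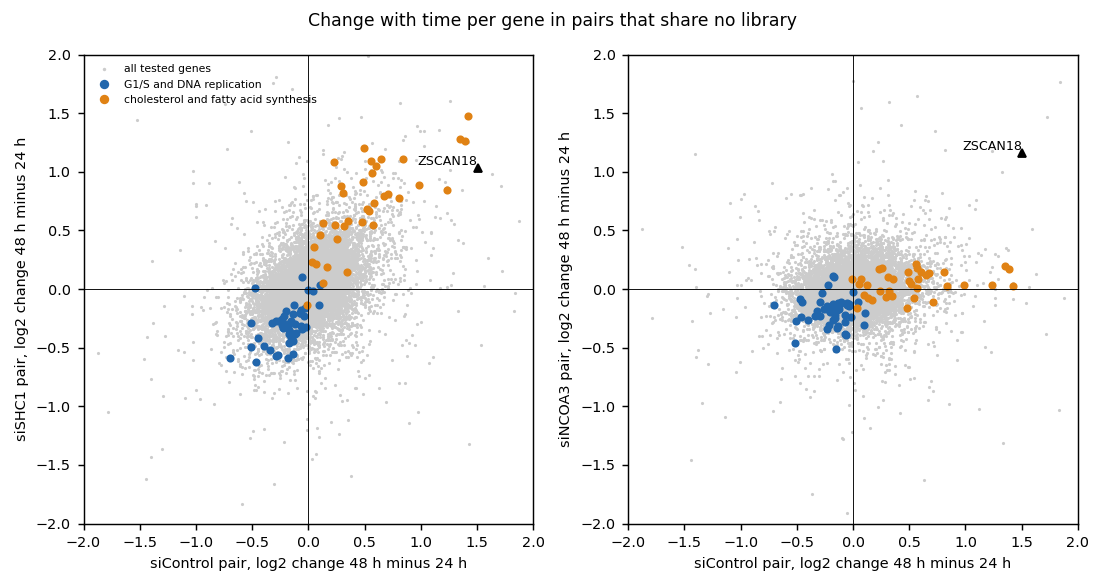
Log2 change from 24 h to 48 h of each tested gene in the siControl pair (x axis) against the siSHC1 pair (left) and the siNCOA3 pair (right); grey points are all 11699 genes, of which 18 on the left and 11 on the right lie beyond the axes at 2. Of the 49 G1/S genes (blue) 46 lie below 0 in each pair, while cholesterol and fatty acid synthesis genes (orange) are spread upward in siControl and siSHC1 and lie close to 0 in siNCOA3.

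Genes of G1/S transition and DNA replication had the lowest median of the lists. All 49 tested members had a fitted change below 0, with a median of -0.23 against -0.0017 over all tested genes, and 41 of the 49 were lower in every pair, where 19.0% of all tested genes were. The medians were -0.17, -0.18 and -0.31 in the siControl, siNCOA3 and siSHC1 pairs, and 46 of 49 lay below 0 in each. No member was called by limma, and 36 had an unadjusted p under 0.05, beside 14.1% of all tested genes. The shares over all tested genes, 19.1% higher in all 3 pairs, 19.0% lower in all 3 and 14.1% at an unadjusted p under 0.05, are called background shares below. CCNE2 had the largest change of the list. PRIM1, the primase that starts Okazaki fragments, stood at -0.47 ± 0.12 (18.4, 13.5 and 16.9 FPKM at 24 h, and 11.9, 12.1 and 10.8 at 48 h). RFC3, a subunit of the clamp loader, stood at -0.44 ± 0.10 (12.6, 11.6 and 10.7 against 9.62, 9.61 and 6.56 FPKM). CLSPN, the checkpoint mediator claspin, stood at -0.38 ± 0.08 (21.1, 21.0 and 20.1 against 17.1, 17.2 and 13.9 FPKM). In PRIM1, RFC3 and CLSPN every 48 h library lay below every 24 h library, as in 4.03% of all tested genes. They were chosen as the largest changes of the list, which favours such a separation. Leaving out 1 pair moved the list's median between -0.19 and -0.25.

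Promoters of the list were searched for words bound by E2F factors because its members moved together in all 3 pairs. The words TTTCCCGC, TTTCGCGC, TTTGCCGC and TTTGGCGC, on either strand, were found in the 250 bases before a start in 16 of the 40 members with an entry (40.0%), against 3.40% of 27305 genes and 2.79% of 35116 promoters. Of the 16 members 14 were lower in all 3 pairs, near the share of the whole list, 41 of 49. A match is a description and not a binding site. The list was drawn up with replication genes known as E2F targets, so that the share describes the list and not the change with time. In the promoters below the word is in capitals as it reads on the gene's strand. Of the members holding a word 3 are shown, which need not be those with the largest change. They are RFC3 (chr13:33817899-33818148, plus strand), GINS2, a subunit of the replicative helicase (chr16:85688955-85689204, minus strand), and POLA2, a subunit of polymerase alpha (chr11:65261712-65261961, plus strand), all 5′ to 3′ from RefSeq on GRCh38.p14.
RFC3: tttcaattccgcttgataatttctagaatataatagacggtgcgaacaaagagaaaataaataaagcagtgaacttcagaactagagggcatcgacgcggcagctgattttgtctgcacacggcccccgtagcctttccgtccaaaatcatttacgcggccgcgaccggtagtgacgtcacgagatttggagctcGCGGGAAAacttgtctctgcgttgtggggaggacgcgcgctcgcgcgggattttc
GINS2: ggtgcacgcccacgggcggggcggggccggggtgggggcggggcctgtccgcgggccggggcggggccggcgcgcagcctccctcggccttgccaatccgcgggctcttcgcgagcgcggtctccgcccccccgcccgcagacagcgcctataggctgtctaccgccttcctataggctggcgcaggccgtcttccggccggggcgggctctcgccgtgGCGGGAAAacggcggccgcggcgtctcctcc
POLA2: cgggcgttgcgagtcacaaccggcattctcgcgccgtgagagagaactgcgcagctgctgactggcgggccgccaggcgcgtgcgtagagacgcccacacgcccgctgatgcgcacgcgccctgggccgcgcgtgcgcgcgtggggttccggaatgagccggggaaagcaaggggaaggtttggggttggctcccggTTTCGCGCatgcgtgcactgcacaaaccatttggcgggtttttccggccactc
In these 3 genes the word ends 47, 23 and 45 bases before the start. GINS2 went from 13.4, 12.6 and 11.8 FPKM to 9.94, 10.2 and 9.40 (-0.35 ± 0.09). POLA2 went from 16.4, 16.2 and 16.2 FPKM to 15.9, 10.9 and 13.1 (-0.31 ± 0.09), and its change was largest in the siNCOA3 pair.

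The mitotic wave was read next. Of 50 tested genes of G2/M and mitosis 37 lay below 0, with a median of -0.093, 23 were lower and 9 higher in all 3 pairs, and limma called none (8 at an unadjusted p under 0.05). The background shares are 19.0%, 19.1% and 14.1%, and the 8 of 50 lie near the last. The median was -0.049 without the siControl pair and -0.057 with upper quartile scaling. MAD2L1, a spindle checkpoint protein, stood at -0.30 ± 0.10, topoisomerase TOP2A at -0.26 ± 0.06, the kinesin KIF20B at -0.24 ± 0.08 and cyclin A2 (CCNA2) at -0.24 ± 0.08. TOP2A went from 115, 132 and 111 FPKM to 104, 106 and 93.8, with every 48 h library below every 24 h library, as in 4.03% of all tested genes. The 26 tested p53 targets and CDK inhibitors had a median of -0.023, with 4 higher and 4 lower in all 3 pairs, and limma called none (5 at an unadjusted p under 0.05), counts near the background shares. That median turned to 0.0021 without scaling and 0.0068 with upper quartile scaling, and to 0.0082 without the siNCOA3 pair. RRM2B, the p53-induced ribonucleotide reductase subunit, stood at -0.60 ± 0.14 (16.6, 14.1 and 22.2 against 11.1, 6.67 and 19.4 FPKM).

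FOXO targets and genes of growth restriction were higher in all 3 pairs by their medians, at 0.17, 0.14 and 0.27 after siControl, siNCOA3 and siSHC1. Of 30 tested members 24 lay above 0, 17 were higher (19.1% over all tested genes) and 0 lower in every pair, with a median of 0.20, and limma called none (12 at an unadjusted p under 0.05). YPEL3, a growth-suppressing protein, went from 8.27, 10.0 and 13.2 FPKM to 15.1, 11.8 and 22.1 (0.54 ± 0.11). CCNG2, the cyclin G2 of quiescent cells, went from 9.50, 9.45 and 9.49 FPKM to 16.2, 11.2 and 15.3 (0.49 ± 0.10). Its 48 h libraries all lay above its 24 h libraries, as in 5.75% of all tested genes. PIK3IP1, an inhibitor of PI3-kinase, stood at 0.65 ± 0.21 with 0.535 to 0.819 FPKM at 24 h and 0.975 to 3.01 at 48 h. It passed the filter only through its 48 h values and does not speak for the list. FOXO4 stood at 0.47 ± 0.14. Leaving out 1 pair moved the list's median between 0.12 (without siSHC1) and 0.23 (without siNCOA3).

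Genes of cholesterol and fatty acid synthesis gave the largest list median, 0.42, and the largest spread between pairs, with medians of 0.49 in the siControl pair, 0.044 in the siNCOA3 pair and 0.76 in the siSHC1 pair. Of 36 tested members 35 lay above 0 in the fit and also in each of the siControl and siSHC1 pairs, and 25 in the siNCOA3 pair. In all 3 pairs 24 were higher (19.1% over all tested genes) and 0 lower, and limma called none (25 at an unadjusted p under 0.05). SCD, the stearoyl-CoA desaturase, went from 54.4 to 160 FPKM after siControl, from 66.3 to 67.0 after siNCOA3 and from 93.4 to 259 after siSHC1 (0.97 ± 0.33, limma adjusted p = 0.337). INSIG1, which holds the SREBP complex in the endoplasmic reticulum, went from 33.7 to 94.6, from 38.8 to 44.4 and from 80.6 to 196 FPKM (0.94 ± 0.25, limma adjusted p = 0.292). In SCD and INSIG1 the siNCOA3 library of 48 h lies below the siSHC1 library of 24 h, so that the groups overlap. TM7SF2, a sterol reductase, went from 4.40 to 12.6, from 6.70 to 6.82 and from 7.49 to 14.2 FPKM (0.71 ± 0.22).

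Without the siNCOA3 pair 11 of these 36 genes passed the test, all higher, among 59 of 11699 genes (0.504%) called in the siControl and siSHC1 pairs, and the list's median was 0.60, while it was 0.26 without the siSHC1 pair. Of the 52 genes called higher there 39 also lay above 0 in the siNCOA3 pair. In that fit SCD rose by 1.45 ± 0.07 (limma adjusted p = 0.00582), INSIG1 by 1.31 ± 0.07 (0.00582) and HMGCS1, the synthase at the head of the sterol pathway, by 0.94 ± 0.09 (0.0340). The fit had 2 pairs and 1 residual degree of freedom moderated over genes. The pair left out is the one in which this list had its smallest median, so that leaving it out favours these calls. They are given as a description. Over all genes limma called 0 without the siControl pair and 6 without the siSHC1 pair.

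The CCAAT box, which the factor NFY binds next to SREBP in many of these promoters, was searched as the letters CCAAT on either strand. It was found in 20 of the 28 members with an entry (71.4%), against 37.0% of 27305 genes and 32.0% of 35116 promoters. A sterol element, TCACNCCAC, was found in 1 of 28, against 1.09% of genes. A match is a description and not a binding site. The list was drawn up from known genes of these pathways, so that the share describes the list and not the change with time. The reference holds all genes with a promoter entry and not only those tested. The promoters of SCD (chr10:100346983-100347232, plus strand) and INSIG1 (chr7:155297628-155297877, plus strand) are shown, the members with the largest change, with each CCAAT or its complement in capitals, 5′ to 3′ from RefSeq on GRCh38.p14.
SCD: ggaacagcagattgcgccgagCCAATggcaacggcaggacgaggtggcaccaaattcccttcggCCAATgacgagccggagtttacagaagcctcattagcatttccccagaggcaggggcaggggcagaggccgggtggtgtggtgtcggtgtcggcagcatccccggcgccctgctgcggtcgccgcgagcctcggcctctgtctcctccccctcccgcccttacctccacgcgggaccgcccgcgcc
INSIG1: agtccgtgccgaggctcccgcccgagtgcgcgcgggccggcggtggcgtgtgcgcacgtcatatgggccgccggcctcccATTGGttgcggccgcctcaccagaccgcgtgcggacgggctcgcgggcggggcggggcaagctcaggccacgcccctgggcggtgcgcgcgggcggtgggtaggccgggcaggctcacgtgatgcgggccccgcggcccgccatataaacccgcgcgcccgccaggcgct
SCD holds the letters at 2 places and INSIG1 at 1, and the last match ends 181 and 165 bases before the start.

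Ribosome biogenesis genes had medians below 0 in the siControl and siSHC1 pairs, in which the sterol genes had medians above 0. Of 56 tested members 53 lay below 0, with a median of -0.17, and the pair medians were -0.33 after siControl, 0.028 after siNCOA3 and -0.20 after siSHC1. In all 3 pairs 21 were lower (19.0% over all tested genes) and 0 higher, and limma called none (18 at an unadjusted p under 0.05). The median was -0.28 without the siNCOA3 pair and -0.087 without the siControl pair. RRS1 went from 15.7, 11.5 and 12.6 FPKM to 9.23, 10.9 and 9.30 (-0.42 ± 0.14), NOC3L from 15.6, 14.2 and 12.6 to 9.82, 12.9 and 9.25 (-0.42 ± 0.12). GAR1, of the pseudouridylation complex, stood at -0.38 and NIP7 at -0.34. The E-box CACGTG, on either strand, was found in 6 of the 46 members with a promoter entry (13.0%), against 7.73% of genes. This share too describes the list and not the change with time. Cytosolic ribosomal proteins had a median of -0.048 over 79 genes and 32 lower and 0 higher in all 3 pairs, and limma called none (2 at an unadjusted p under 0.05). The background shares are 19.0%, 19.1% and 14.1%, so that more members than that were lower in all pairs and fewer reached that p. Their median was -0.012 with upper quartile scaling, -0.017 without scaling and -0.080 without the siNCOA3 pair. RPL7 stood at -0.17 ± 0.06, RPL24 at -0.17 ± 0.07 and RPL6 at -0.15 ± 0.06, and their processed copies make such values uncertain.

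Hypoxia and glycolysis genes had medians of 0.20, -0.0032 and 0.30 after siControl, siNCOA3 and siSHC1. Of 40 tested members 35 lay above 0, with a median of 0.17, 17 were higher and 2 lower in all 3 pairs (background shares 19.1% and 19.0%), and limma called none (17 at an unadjusted p under 0.05, background share 14.1%). The aldolase ALDOC went from 4.28 to 10.5, from 5.54 to 5.85 and from 10.6 to 25.9 FPKM (0.78 ± 0.22). The carbonic anhydrase CA9, a standard marker of low oxygen, went from 7.19 to 14.4, from 10.4 to 11 and from 20.1 to 43.8 FPKM (0.66 ± 0.19), and CA12 went from 12.4 to 33.6, from 18.3 to 17.2 and from 24.6 to 50.3 FPKM (0.73 ± 0.27). NDRG1 stood at 0.40 ± 0.10, with 152, 217 and 259 FPKM at 24 h and 246, 229 and 370 at 48 h. Without the siNCOA3 pair 5 members of the list passed the test, all higher, where 0.504% of all genes did, and the list's median was 0.23, while it was 0.11 without the siSHC1 pair. Here too the pair left out had the smallest median of the list, which favours such calls, and the count is a description.

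**Figure D3:**
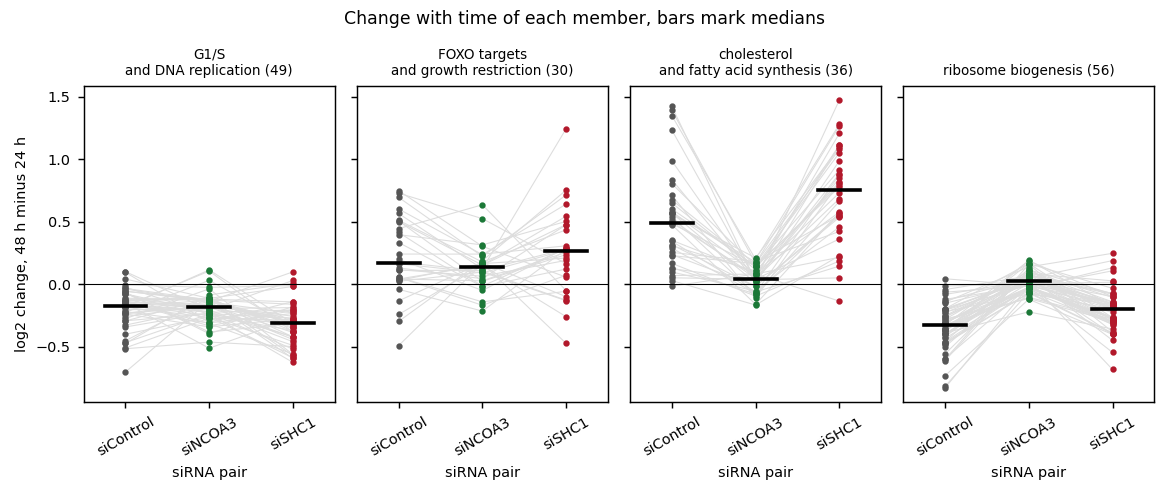
Log2 change from 24 h to 48 h of every tested member of 4 lists (y axis) in the siControl, siNCOA3 and siSHC1 pairs (x axis); a point is a gene, grey lines join 1 gene over the pairs and black bars are medians. The G1/S medians are -0.17, -0.18 and -0.31 and the FOXO medians 0.17, 0.14 and 0.27, while those of cholesterol and fatty acid synthesis (0.49, 0.044 and 0.76) and ribosome biogenesis (-0.33, 0.028 and -0.20) lie near 0 in the siNCOA3 pair.

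NF-kB targets and inflammatory cytokines were higher in all 3 pairs by their medians, at 0.30, 0.17 and 0.060, with the siSHC1 pair lowest. Of 29 tested members 23 lay above 0, with a median of 0.19, 13 were higher and 2 lower in every pair (background shares 19.1% and 19.0%), and limma called none (11 at an unadjusted p under 0.05, background share 14.1%). The median was 0.10 over all members with no filter and 0.12 with 1 FPKM in all 6 libraries. IL8, the neutrophil chemokine now called CXCL8, went from 2.67, 2.07 and 1.85 FPKM to 7.34, 4.17 and 2.96 (0.78 ± 0.14). ZC3H12A, the ribonuclease that degrades cytokine transcripts, went from 4.18, 2.94 and 2.69 FPKM to 7.61, 5.15 and 4.53 (0.63 ± 0.09). In both genes every 48 h library lay above every 24 h library, as in 5.75% of all tested genes, and the choice of the largest rises favours this. CXCL1 went from 1.74 to 5.14, from 1.10 to 2.36 and from 0.639 to 0.729 FPKM (0.62 ± 0.19), and ICAM1, described above, is the next member.

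Interferon response genes had a median of 0.13 over 50 tested members, of which 40 lay above 0, and 18 were higher and 1 lower in all 3 pairs (limma called none, with 14 at an unadjusted p under 0.05). The exonuclease ISG20 went from 2.69, 2.25 and 4.47 FPKM to 4.53, 3.77 and 7.62 (0.57 ± 0.10). IFI27 went from 223, 274 and 328 FPKM to 395, 302 and 486 (0.48 ± 0.11), IFIT2 stood at 0.50 ± 0.16 and IFITM1 at 0.42 ± 0.09. Antigen presentation genes had a median of 0.16 over 27 members, with 22 above 0 and 14 higher and 1 lower in all 3 pairs (limma called none, with 15 at an unadjusted p under 0.05). CD74, the invariant chain of class II, went from 152, 142 and 185 FPKM to 273, 162 and 278 (0.51 ± 0.10). HLA-DMA stood at 0.50 ± 0.20, HLA-DRA at 0.43 ± 0.12 and HLA-DRB1 at 0.34 ± 0.14, genes of a family whose reads are hard to assign. Pair medians were 0.19, 0.024 and 0.23 for interferon and 0.24, 0.053 and 0.27 for antigen presentation, so that the siNCOA3 pair had the smallest median in both. For both lists the background shares are 19.1% higher, 19.0% lower and 14.1% at that p. Without the siNCOA3 pair 2 interferon and 3 antigen presentation genes passed the test, all higher, where 0.504% of all genes did, and the list medians were 0.21 and 0.25. As the pair with the smallest medians was the one left out, which favours such calls, these counts are a description.

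Of 20 tested epithelial genes 19 had a fitted change above 0, with a median of 0.26 and pair medians of 0.18, 0.11 and 0.37. In all 3 pairs 12 were higher and 1 lower (background shares 19.1% and 19.0%), and limma called none (11 at an unadjusted p under 0.05, background share 14.1%). Over all members, with no filter, the median was 0.14. The mucin MUC1 went from 6.46, 7.47 and 11.5 FPKM to 15.3, 9.21 and 30.8 (0.89 ± 0.20). The protease inhibitor SPINT1 stood at 0.52 ± 0.16 and KRT15 at 0.47 ± 0.15. The 16 mesenchymal genes had a median of -0.0025, which turned to 0.028 without scaling and 0.033 with upper quartile scaling, with 4 higher and 3 lower in all 3 pairs, and limma called none (6 at an unadjusted p under 0.05). Of the 16 mesenchymal genes 8 lay above 0 and 8 below, and the pair medians were 0.015, 0.019 and 0.015 after siControl, siNCOA3 and siSHC1. Among the 8 below 0, SNAI2, a repressor of epithelial genes, stood at -0.20 ± 0.08 and CD44 at -0.19 ± 0.07. These were named by the sign of the fitted median alone. With 8 members above 0 they do not speak for the list.

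Lysosomal and autophagy genes had small medians above 0 in each pair. Of 55 tested genes of the lysosome and its proton pump 45 lay above 0, 27 were higher and 1 lower in all 3 pairs, with a median of 0.13 and pair medians of 0.11, 0.070 and 0.19 (limma called none, with 13 at an unadjusted p under 0.05). The protease cathepsin D (CTSD) went from 940, 989 and 1233 FPKM to 1247, 1065 and 1513 (0.24 ± 0.05), and the cholesterol exporter NPC1 from 31.3, 28.4 and 35.0 to 36.7, 37.7 and 46.0 (0.30 ± 0.08). GM2A stood at 0.29 ± 0.10 and MAN2B1 at 0.23 ± 0.08. Of 41 autophagy genes 29 lay above 0, with a median of 0.097, 17 were higher and 2 lower in all 3 pairs, and limma called none (15 at an unadjusted p under 0.05). The kinase ULK2 went from 2.94, 2.80 and 3.95 FPKM to 4.62, 4.05 and 5.82 (0.44 ± 0.09), and MAP1LC3A from 5.32, 5.14 and 4.18 to 7.88, 7.17 and 6.01 (0.42 ± 0.09), with near-equal changes in the 3 pairs. GABARAPL2 stood at 0.32 ± 0.08 and ATG9A at 0.29 ± 0.09. The background shares are 19.1% higher, 19.0% lower and 14.1% at that p. Without the siSHC1 pair the medians were 0.084 for the lysosome and 0.062 for autophagy.

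Matrix proteases and their inhibitors had a median of 0.14 over 30 members, with 12 higher and 3 lower in all 3 pairs (limma called none, with 10 at an unadjusted p under 0.05). The cystatins CST4 (15.3, 12.9 and 17.6 against 28.2, 16.1 and 30.1 FPKM, 0.59 ± 0.10) and CST1 (0.71 ± 0.17) led the list, and as close copies they may share reads. Collagens, laminins and matrix genes had a median of 0.098 over 33 members, with 15 higher and 4 lower in all 3 pairs (limma called none, with 13 at an unadjusted p under 0.05). Fibronectin (FN1) went from 72.7 to 111, from 81.9 to 81.2 and from 80.1 to 123 FPKM (0.37 ± 0.12), and the laminin LAMB2 stood at 0.35 ± 0.09. COL1A2, also a fibroblast marker, stood at 0.30 ± 0.11 with at most 1.88 FPKM. The matrix median was 0.21 without the siNCOA3 pair, and that of the proteases 0.083 without the siSHC1 pair and 0.077 over all members with no filter. The background shares for both lists are 19.1%, 19.0% and 14.1%.

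**Figure D4:**
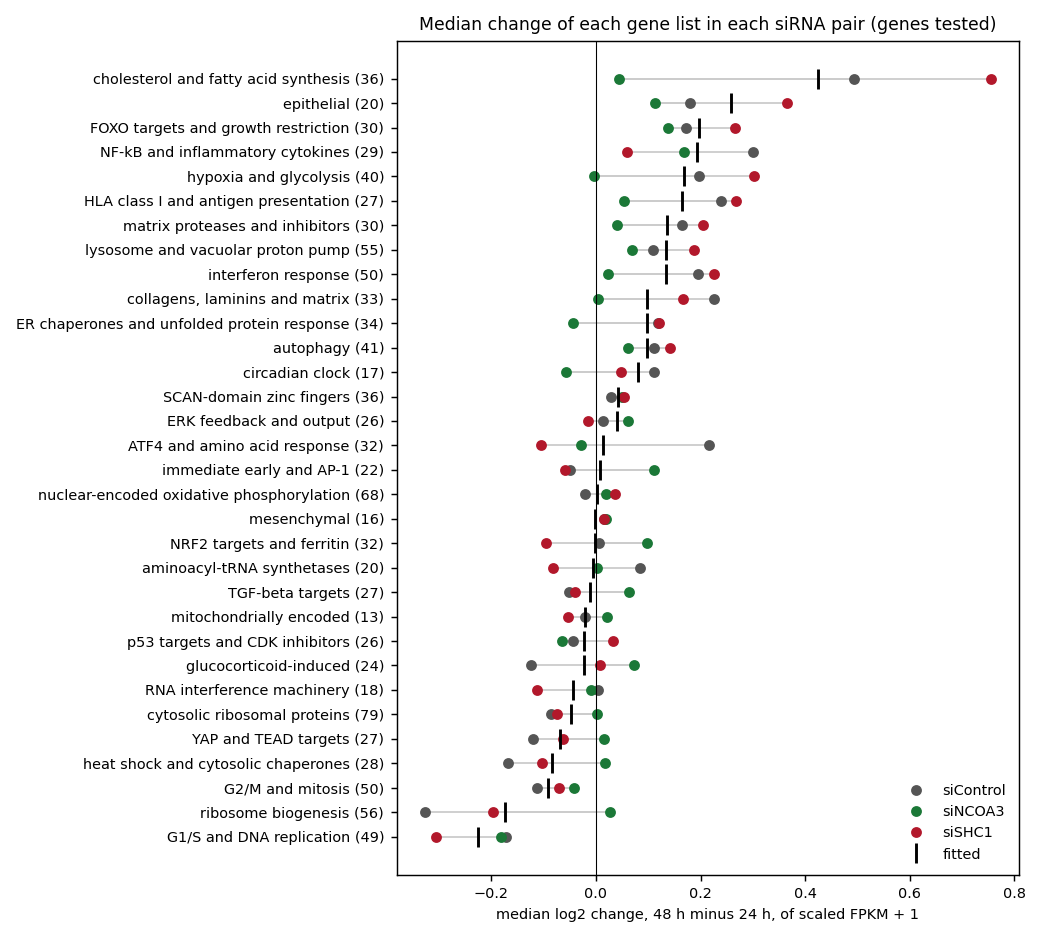
Median log2 change from 24 h to 48 h (x axis) of 32 gene lists (y axis, with the number of tested genes), where coloured points are the 3 siRNA pairs and black ticks the median of the fitted changes. Cholesterol and fatty acid synthesis has the highest fitted median, 0.42, and G1/S and DNA replication the lowest, -0.23; in the siNCOA3 pair the list medians lie between -0.18 and 0.17.

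The other lists had medians between -0.085 and 0.098, and limma called none of their members. The 27 TGF-beta targets had a median of -0.011 (8 at an unadjusted p under 0.05), and ANGPTL4, a secreted lipase inhibitor that is also induced by glucocorticoids, went from 14.3, 14.8 and 32.0 FPKM to 3.78, 12.2 and 14.8 (-1.03 ± 0.30). The 24 glucocorticoid-induced genes had a median of -0.024 (6), the 27 YAP and TEAD targets -0.069 (3), the 26 ERK output genes 0.040 (4), the 22 immediate early genes 0.0083 (3) and the 17 clock genes 0.081 (6), in each case with the number at an unadjusted p under 0.05 in parentheses (background share 14.1%). The clock median was -0.014 without the siSHC1 pair, 0.024 without siControl and -0.0041 with no filter. That of the immediate early genes was -0.049 without siNCOA3 and 0.071 without siSHC1, and that of the YAP and TEAD targets -0.013 without siControl. DBP, a clock output gene, stood at 0.47 ± 0.15. For ATF4 and the amino acid response the median was 0.013 over 32 genes (6), with pair medians of 0.22, -0.030 and -0.10. Among its members ASNS, the asparagine synthetase, went from 21.2 to 42.7, from 17.6 to 17.3 and from 25.3 to 32.6 FPKM (0.41 ± 0.16). The 34 chaperones of the endoplasmic reticulum had a median of 0.098 (3), and the 28 heat shock genes -0.085 (6), where HSPH1 stood at -0.38 ± 0.11.

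Oxidative phosphorylation genes encoded in the nucleus had a median of 0.0021 over 68 members (4 at an unadjusted p under 0.05), and the 13 mitochondrially encoded transcripts -0.022 (2). The 32 NRF2 targets had -0.0029 (5), and the 20 aminoacyl-tRNA synthetases -0.0060 (2). The signs of the medians for TGF-beta targets, glucocorticoid-induced genes, mitochondrially encoded transcripts, NRF2 targets and aminoacyl-tRNA synthetases turned positive without scaling and with upper quartile scaling, and that of oxidative phosphorylation turned negative with equal totals. The 18 genes of the RNA interference machinery, through which the transfected siRNAs act, had a median of -0.044 (2), with AGO2 at -0.36 ± 0.14 and DICER1 at -0.26 ± 0.10. That median was 0.038 without the siSHC1 pair and -0.083 without the siControl pair. Leaving out 1 pair also turned the sign of the medians of TGF-beta targets, glucocorticoid-induced genes, the amino acid response, mesenchymal genes, NRF2 targets, aminoacyl-tRNA synthetases, mitochondrially encoded transcripts and oxidative phosphorylation.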

How the data were processed

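RNA was sequenced from 6 libraries of MDA-MB-231 cells (3 siRNAs, 24 h and 48 h, 1 library each), with Trizol extraction and a stranded mRNA kit, per the labels' protocols. STAR, Cufflinks, DESeq2 and the build hg19 are named, per the submitters' processing notes, without roles or versions. Annotation and use of strand: not given in the sources used here. Values the authors deposited are FPKM per gene symbol (not whole, with steps that shrink with gene length), although the table is named for counts. Depth is known only relatively, from value steps under 0.3 FPKM, so that there is no counting interval, and a 0 is called listed at 0.

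FPKM were scaled between libraries by median of ratios, taken over the 13878 genes above 0 in all 6 (factors 0.946 to 1.02). Genes reaching 1 FPKM in 2 or more libraries (11699) were tested on log2(scaled FPKM + 1), which understates changes of low genes, with limma 3.58.1 in R 4.3.3 (lmFit, eBayes with trend and robust, additive siRNA and time terms, 2 residual degrees of freedom) and Benjamini-Hochberg adjustment over all genes at 0.05. The siRNA term pairs the libraries by the label's siRNA. The test was tested on simulated data. The members, the 36 gene lists (1158 symbols, 3 of the entries unmatched), the rules and the alternatives were chosen with earlier results of these data known. Named genes are ZSCAN18, the siRNA targets, called genes, and up to 15 per direction ranked by the smallest of the 3 pair changes (mean of 5 FPKM or more), with up to 4 members per list by size in the direction of its median (HMGCS1, GINS2 and POLA2 were added after their values were seen); some genes the rule names are not reported here. Promoters are RefSeq's (GRCh38.p14), matched by symbol, and overlaps are from GENCODE on GRCh38. Alternatives changed scaling, pseudocount, filter, siRNA term, moderation or the libraries used. Python 3.11.15, pandas 2.3.3, numpy 2.4.6 and matplotlib 3.10.9 were used for promoters and plots.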

Additional observations from a re-analysis of the deposited data

Results flagged for a closer look

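In 14 genes the change from 24 h to 48 h was at least 2-fold in opposite directions in different siRNA pairs, and 3 of these had a mean of at least 5 FPKM. With 1 library per siRNA and time, none of these differences was tested. ETV6, an ETS family repressor, stood at a log2 change of -1.40 after siControl, 1.15 after siNCOA3 and -1.44 after siSHC1, going from 33.6, 6.83 and 19.6 FPKM at 24 h to 13.1, 16.3 and 6.56 at 48 h. HMSD, a serpin-domain gene, stood at -1.03, 0.42 and 1.01, going from 15.5, 11.8 and 9.27 FPKM to 7.69, 16.0 and 19.6. AC012360.2, a clone-named gene, stood at -1.40, -0.58 and 3.14, going from 63.2, 214.9 and 21.4 FPKM to 25.4, 141.9 and 194.7.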

How the results depend on the processing

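The count of 3 genes called between the times was 3 under no scaling, equal totals, upper quartile scaling, pseudocount 0.5 and moderation without trend and robust, and 2 with pseudocount 0.1. Without trend and robust the 3 were 1 higher and 2 lower. AL050302.1 and RP11-680G10.1 stayed called, while ZSCAN18 was lost (limma adjusted p = 0.109) and AP002348.1 was called in its place. The count was 0 with no filter (1695 genes at an unadjusted p under 0.05, limma), 0 with 1 FPKM in all 6 libraries (1581), 1 with a mean of at least 5 FPKM and 1 with no replicate block, that is without the siRNA term that pairs the libraries. Leaving out a pair or a library gave 0 to 60. Genes that differed at least 2-fold in the siControl, siNCOA3 and siSHC1 pairs numbered 213, 112 and 232 with pseudocount 0.1, 134, 64 and 139 with 0.5, 49, 17 and 56 with 1 FPKM in all 6 libraries and 33, 14 and 37 with a mean of at least 5 FPKM, where fewer genes are tested. The counts of genes moving one way in all 3 pairs stayed within 1.5 times under the alternatives run, but their split went from even to 3030 higher against 1505 lower with upper quartile scaling. Of 641 values of named genes under 19 alternatives 0 changed direction, 10 gained and 20 lost a call, and of 360 list medians 33 changed sign. Apart from the siRNA targets, the named genes moved one way in all 3 pairs, most of them by the rule that chose them. Leaving out a pair or a library could therefore not reverse them, and the 0 describes that choice. With 1 library per cell of the design, the 2 residual degrees of freedom are the differences in the time change between siRNAs. Library noise and a change with time particular to an siRNA thus enter each SE and p together and cannot be told apart. Small changes could not be separated from that spread. The cause of the lost calls was not tested.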
